A study of Mus musculus with 24 samples.

Results

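Nuclear RNA of control cardiomyocytes (CMs) was compared between postnatal day 14 (P14) and postnatal day 1 (P1) in 6 of the 24 libraries of the series. They were P14 control replicates 1, 2 and 4 and P1 control replicates 2, 3 and 4 by their labels. P1 control replicate 1 and P14 control replicate 3 were left out, as the study did for low quality, which it judged on the measured counts of these libraries. The study as a whole asked how the PIDDosome, a protein complex that activates caspase-2, limits the number of genome copies in CMs, and this comparison asks what changes in CM nuclei over the same days when caspase-2 is present.

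Control mice carried a loxP-flanked Casp2 gene (Casp2 fl/fl) and no Cre transgene, and are written XMLC2(-)Casp2(fl/fl). All groups of the series share the loxP-flanked gene. In the Casp2-depleted groups (XMLC2(+)Casp2(fl/fl)) a Cre recombinase under the CM-restricted XMLC2 promoter removes it. Neither day received a treatment. Ventricles were taken from mice on a C57BL/6N background, and nuclei were sorted with an antibody to PCM1, a centriolar satellite protein that surrounds CM nuclei. Each library is a pool of hearts, 15 at P1 and 2 at P14, so a library at P14 averages far fewer animals than one at P1. The RNA is nuclear and was read at transcript 3′ ends (QuantSeq). In such bulk material, fewer nuclei that express a gene and less RNA per nucleus cannot be told apart.

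In the first 2 postnatal weeks, mouse CMs complete a last round of DNA synthesis, mostly without cell division, and leave the cell cycle. In the same period they exchange fetal for adult isoforms of sarcomere proteins, build up a calcium-handling membrane system and turn from glucose to fatty acids as fuel. Slow skeletal troponin I (Tnni1) and its cardiac counterpart (Tnni3) are the textbook pair of this exchange: both hold the thin filament in its off state, and the fetal form is less sensitive to acidosis and to adrenergic signalling.

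The 3 P1 libraries held 1243967, 1544100 and 1300426 reads on genes (replicates 2, 3 and 4) and the 3 P14 libraries 1278961, 1026886 and 891817 (replicates 1, 2 and 4). A count of 3 reads, taken as the limit that a count of 0 allows, was worth 1.94 to 2.41 CPM (reads scaled to a common library size) at P1 and 2.35 to 3.36 CPM at P14, for counting error only. P14 libraries 1 and 4 were the sparsest, with 9257 and 7628 genes detected against 13651 in P14 replicate 2 and 10981 to 15039 at P1 (exact permutation test, two-sided, p = 0.2, where 0.1 is the smallest p that 3 against 3 can give). Reads assigned to no gene made up 60.7 to 73.9% at P1 and 63.7 to 75.2% at P14. CM markers were high in each of the 6 libraries, at a summed 23698 to 55523 CPM at P1 and 12869 to 47409 CPM at P14, and the sums overlapped between the days (exact permutation test, p = 0.3). Summed markers of other cells were far lower and overlapped as well: endothelial markers ran from 261 to 547 CPM at P1 and from 51.6 to 1115 CPM at P14, macrophage markers from 151 to 256 and from 105 to 505, fibroblast markers from 178 to 198 and from 174 to 328, and mural cell markers from 397 to 490 and from 68.0 to 510. Abcc9 held much of the mural sum at P1, with a TMM-scaled mean of 212 CPM at P1, 290 at P7 and 72.1 at P14. Which cells its reads came from was not tested. Mitochondrially encoded genes summed to 1391 to 4006 CPM at P1 and 701 to 2640 at P14 (exact permutation test, p = 0.2). Casp2 had no read in any of the 6 libraries, so its level says nothing on the genotype labels. Pcm1, the sorting antigen, stood at 16.3, 248 and 23.8 CPM at P1 and 0, 46.5 and 25.1 CPM at P14.

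Of 20368 genes tested, 65 (0.319%) were called, that is, they had an edgeR adjusted p below 0.05 and a log2 fold change beyond 1 in size. Only 1 gene, Mapt, was called higher at P14 (0.00491%), and 64 were called lower (0.314%). The split was less one-sided under other scalings, with 6 higher and 40 lower under upper quartile factors and 30 higher and 96 lower with limma-voom after quantile normalization. The whole distribution lay below 0: the median log2 fold change over all genes was -0.28, with 55.7% of genes below 0 and 35.3% above it. Tnni1 had the smallest adjusted p with edgeR, 2.08e-37, and Plagl1 the next, 3.94e-11. The replicates within a day differed widely for most genes (chi-square over degrees of freedom, 22.4 to 68.6 between replicate pairs), and 2333 genes (11.5%) had an unadjusted p below 0.05, of which 481 (2.36%) had a log2 fold change above 0 and 1852 (9.09%) one below it.

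**Figure D1:**
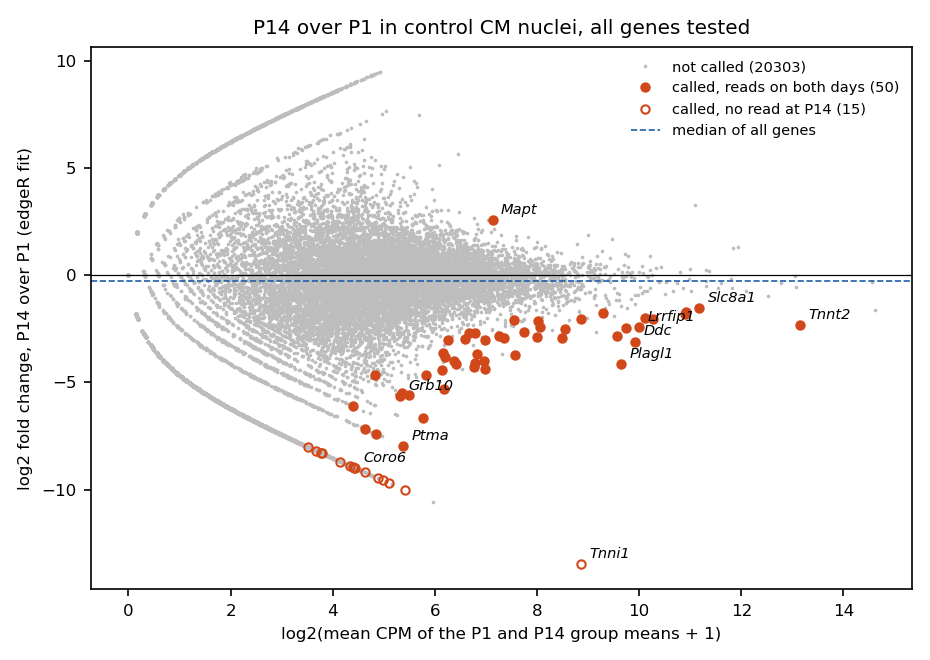
Log2 fold change at P14 over P1 (vertical axis) against the mean level, as log2(CPM + 1) (horizontal axis), for the 20368 genes tested in control CM nuclei; grey points were not called, filled points are the 50 called genes with a read at P14, and open points the 15 called genes with none. The dashed line marks the median of all genes, -0.28, and 64 of the 65 called genes lie below it.

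The genes called lower at P14 had a median level at P1 of 171 CPM, against 13.4 CPM over all genes tested. The P1 level entered the contrast that chose them, so this describes the calls and is no trait of falling genes in general. In 50 of the 64 every P14 library lay below every P1 library, which 6.41% of all genes show, and in 14 the days overlapped. Since the same contrast chose these genes, the count describes them and is no further evidence. A read was found in every P14 library for 30 genes, whose log2 fold changes ran from -4.37 to -1.53 with a median of -2.69. For 19 genes reads were found in 1 or 2 of the P14 libraries, and for 15 in none, where a fitted fold change is no measure of size and only a bound can be given. Zeros were common at P14 in general: in genes where some other replicate of that day had 20 reads or more, 31.4% of the P14 values were 0, against 18.4% at P1 and 12.0% at P7. P1 replicate 2 was the lowest P1 library for 56 of the 64 genes. Its part in the calls was measured by leaving it out, which gave 81 calls in place of 65.

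The 3 genes with the smallest p are shown with the 250 bases before their start. Of these, Tnni1 and Tnnt2 are neighbours on chromosome 1. Capitals mark matches to CANNTG, the E-box core read by basic helix-loop-helix factors. The build is GRCm39, all 3 genes lie on the plus strand, and the windows are chr1:135726890-135727139 for Tnni1, chr10:12966159-12966408 for Plagl1 and chr1:135763488-135763737 for Tnnt2. No base of the windows lies in an exon annotated in GENCODE vM39. Those of Tnni1 and Plagl1 lie in an intron of longer transcripts of the same gene, and that of Tnnt2 lies before the gene.
Tnni1: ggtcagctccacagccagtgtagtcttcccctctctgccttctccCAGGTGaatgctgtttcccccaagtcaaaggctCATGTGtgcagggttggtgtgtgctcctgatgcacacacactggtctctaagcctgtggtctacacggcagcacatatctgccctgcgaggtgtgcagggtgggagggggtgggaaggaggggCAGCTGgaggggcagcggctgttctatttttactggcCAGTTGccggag
Plagl1: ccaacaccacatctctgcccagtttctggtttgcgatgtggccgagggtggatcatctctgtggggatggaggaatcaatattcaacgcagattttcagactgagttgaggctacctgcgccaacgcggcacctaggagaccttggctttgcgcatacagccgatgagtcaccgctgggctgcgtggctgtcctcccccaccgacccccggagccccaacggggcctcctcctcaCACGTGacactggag
Tnnt2: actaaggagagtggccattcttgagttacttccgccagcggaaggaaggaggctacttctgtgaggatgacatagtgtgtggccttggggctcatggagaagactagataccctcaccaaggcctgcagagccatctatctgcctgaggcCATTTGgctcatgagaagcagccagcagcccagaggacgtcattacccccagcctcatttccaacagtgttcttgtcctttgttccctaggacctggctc
CANNTG was found 4 times before Tnni1 and 1 time each before Plagl1 and Tnnt2, and 66.2% of 32536 mouse promoter windows of the same length from RefSeq (GRCm38.p6) hold at least 1. GATAA (22.5% of those windows), CATTCC (12.6%), AAGGTCA (4.09%), the MEF2 site (2.89%) and the CArG box (1.48%) were searched on both strands and had no match in the 3 windows. A match is a run of letters and not a measured binding site.

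Among the sarcomere isoforms, the fetal troponin I gene was the clearest change. Levels are given from here on in the order P1 replicates 2, 3 and 4 and P14 replicates 1, 2 and 4. Tnni1 stood at 609.9, 1267 and 917 CPM at P1 and had no read in any P14 library, from 3966 reads at P1 to 0 at P14. Against a limit of 3 reads over the P14 group this is at least 1262-fold lower (edgeR adjusted p = 2.08e-37). The P1 and P14 libraries were thus fully apart, and the call was kept in all 20 other settings tried. At P7 the 4 control libraries held 519 ± 142 CPM (SD, n = 4), between the levels of the other days.

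Tnni3, the adult troponin I, was not called: it stood at 55.4, 593 and 789 CPM at P1 and at 571, 35.3 and 147 CPM at P14. The days overlapped, with P1 replicate 2 and P14 replicates 2 and 4 on the low side. Its log2 fold change of -0.93 had an SE of 1.00, so neither a gain nor a loss of the adult gene beside the loss of Tnni1 was detectable in these libraries.

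Tnnt2 encodes cardiac troponin T, which anchors the troponin complex to tropomyosin, and is a standard marker of CMs at all ages. It was the 1 called member of 8 in the adult isoform list, and lower at P14 where that list's name points to adult hearts. It stood at 7253, 19008 and 18959 CPM at P1 and at 4229, 1601 and 3152 CPM at P14. Each P14 library lay below each P1 library, and the level was 5.03-fold lower at P14 (log2 fold change -2.33, SE 0.33, edgeR adjusted p = 1.12e-08). The 4 P7 control libraries held 16965 ± 5200.4 CPM. With all 24 libraries in the fit the log2 fold change of Tnnt2 was -0.98 and it was not called, nor was it with limma-voom or when the percentage of reads assigned to no gene was a term of the fit. The gene lies 25.0 kb from Tnni1.

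The other 14 isoform genes were not called. Of the fetal set, Myh7 (slow myosin heavy chain) stood at 73.5, 84.5 and 174 CPM at P1 and 39.6, 36.8 and 7.59 CPM at P14, and Actn1 (the non-muscle alpha-actinin) at 57.8, 65.5 and 129 CPM and 39.6, 18.8 and 48.6 CPM. In both genes each P14 library lay below each P1 library, as in 6.41% of all genes, and neither passed the test (edgeR adjusted p = 0.428 and 0.686). Myl4, the atrial essential light chain, had at most 9.53 CPM at P1 and no read at P14, and Acta1 and Myl7 had no read on either day.

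Acta2, the smooth muscle actin of early CMs, had a log2 fold change of -1.68 that turned to 0.21 without P1 replicate 2, and Tnnt1, slow skeletal troponin T, one of -0.35 that turned to 0.19 without P14 replicate 2. Of the adult set, Myh6 (fast myosin heavy chain, the main adult form in mice) stood at 1499.7, 7424 and 7353 CPM at P1 and 6112, 1131 and 2533 CPM at P14, with the days overlapping. Its log2 fold change was -0.74 and turned to 0.24 with all 24 libraries, and that of Myl2 (ventricular regulatory light chain) went from -0.89 to 0.08. Actc1 (cardiac actin, -2.01), Actn2 (Z-disc alpha-actinin, -2.34) and Myl3 (-1.38) had values below 0 with overlapping libraries. Myom2, an M-band protein of the adult heart, lay near 0 (-0.19) and changed sign under 5 of the settings.

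**Figure D2:**
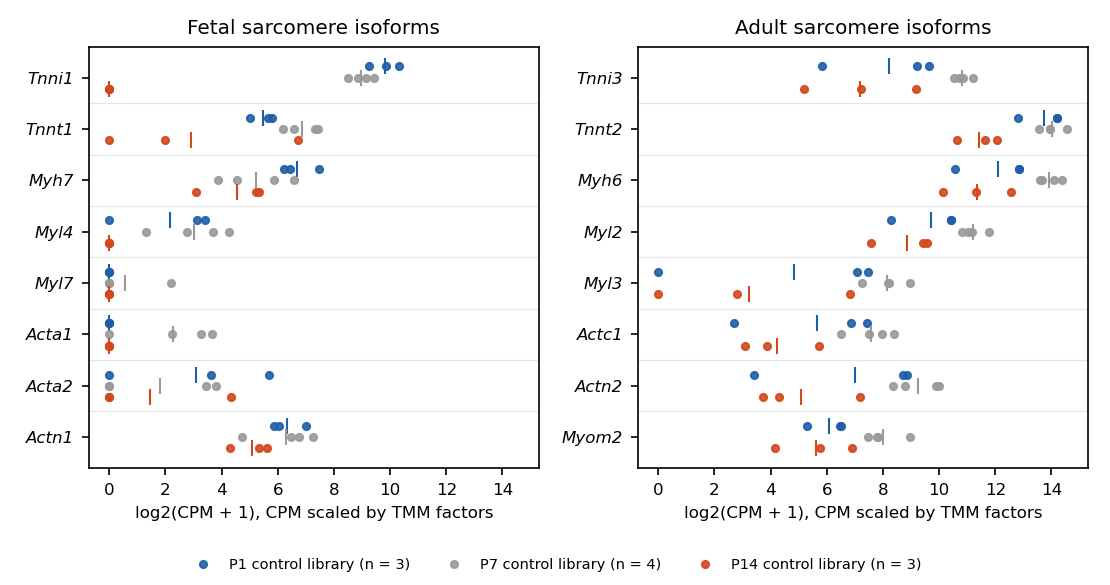
Level of 8 fetal and 8 adult sarcomere isoform genes in each control library, as log2(CPM + 1) on the horizontal axis, at P1 (blue, n = 3), P7 (grey, n = 4) and P14 (red, n = 3), with ticks at the means. Tnni1 falls to 0 in all 3 P14 libraries and Tnnt2 lies lower in all 3, while the adult genes Tnni3, Myh6 and Myl2 overlap between P1 and P14.

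Fetal and imprinted growth genes, the latter expressed from 1 parental copy, held the most calls among the 40 gene lists, with 4 of 26 tested members called lower (0.314% of all genes) and a median log2 fold change of -1.80 against -0.28 over all genes. The lists were chosen with earlier results of these data known, so this rank is a description and no separate evidence. Plagl1, a zinc finger factor at the centre of a network of imprinted growth genes, stood at 953, 1664 and 1939 CPM at P1 and at 86.2, 45.8 and 125 CPM at P14. It was 17.8-fold lower (log2 fold change -4.15, SE 0.53, edgeR adjusted p = 3.94e-11), with a wide gap between the days and 724 ± 432 CPM at P7. Grb10 is an adaptor that dampens insulin and IGF1 receptor signalling. It stood at 64.4, 93 and 70.7 CPM at P1 and 3.53, 0.75 and 0 CPM at P14. It was 53.2-fold lower (edgeR adjusted p = 0.000322), a size that rests on 6 reads at P14 against 328 at P1.

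Peg3, a paternally expressed zinc finger gene, stood at 138, 257 and 226 CPM at P1 and 9.19, 8.25 and 31.1 CPM at P14 (12.8-fold lower, edgeR adjusted p = 0.0286). This call was lost when the replicate number entered the fit as a block. Airn, the long noncoding RNA that silences its neighbour Igf2r on the paternal copy, stood at 1434, 3510.4 and 3952 CPM at P1 and 1180.5, 475 and 864 CPM at P14 (3.53-fold lower, edgeR adjusted p = 0.00463). Airn and Igf2r overlap on opposite strands over 28417 bases. The strand setting of the counting is not given in the sources used here, so reads of the pair on these bases cannot be told apart. All 4 genes had each P14 library below each P1 library. Usp29, next to Peg3, stood at 254, 96.5 and 145 CPM at P1 and at 191, 69.8 and 236 CPM at P14, with no separation.

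Ddc lies 32.3 kb from Grb10 on chromosome 11 and encodes the aromatic amino acid decarboxylase that makes dopamine and serotonin. It stood at 1553, 2324 and 1308 CPM at P1 and at 6.36, 252 and 350.0 CPM at P14 (8.52-fold lower, log2 fold change -3.09, SE 0.52, edgeR adjusted p = 3.11e-05). P14 replicate 1 was far below the other P14 libraries, which were themselves below each P1 library. At P7 it stood at 742 ± 522 CPM.

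Genes of the contractile and actin apparatus made up a further part of the calls. Myo18b, an unconventional myosin needed to assemble sarcomeres, stood at 306, 774 and 818 CPM at P1 and 169.7, 54 and 25.1 CPM at P14 (7.63-fold lower, edgeR adjusted p = 6.07e-05). Trim55, a muscle ubiquitin ligase of the sarcomeric M-band, stood at 120.4, 653 and 580.0 CPM and at 86.9, 40.5 and 58.5 CPM (7.28-fold lower, edgeR adjusted p = 0.000327). Its relative Trim63 (MuRF1) was not called, at 78.9, 278 and 231 CPM at P1 and 445, 245 and 475 CPM at P14.

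Coro6, a coronin that bundles actin, had 24.7, 88 and 10.3 CPM at P1 and no read at P14 (at least 55.6-fold lower, edgeR adjusted p = 3.86e-05). Its mean at P7 was 223 ± 50.1 CPM, above the P1 values. Cald1 (caldesmon, which binds actin and tropomyosin) stood at 1046, 2289.8 and 984 CPM at P1 and at 314, 325 and 143 CPM at P14 (5.53-fold lower, edgeR adjusted p = 0.000375). Lmo7, which links actin to cell junctions and the nuclear envelope, stood at 585, 2060.2 and 3265 CPM and at 657, 252 and 534 CPM. It was called (4.1-fold lower, edgeR adjusted p = 0.000652) although P1 replicate 2 lay below P14 replicate 1.

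Myo18b, Cald1 and Lmo7 are members of no list used here, and this group was put together after the calls were seen. Over all genes tested 0.319% were called. The list of titin, M-band, Z-disc and thin filament genes had 1 of 34, Pdlim5 (a PDZ and LIM protein of the Z-disc), at 115, 101 and 186 CPM at P1 and 28.3, 11.3 and 9.11 CPM at P14. Among actin cytoskeleton regulators 2 of 34 were called, Coro6 and Mtss1 (a membrane-bending actin regulator), the latter at 234, 528 and 574 CPM and 33.9, 77.3 and 137 CPM. Titin itself (Ttn) had a log2 fold change of -0.02 with an SE of 0.91, and Palld and Fhod3, other actin-binding proteins of the sarcomere, -0.18 and 0.21.

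Regulators of transcription and of RNA processing were the next group. Gata6, a zinc finger factor of heart development, stood at 83.7, 154 and 241 CPM at P1 and 12.7, 3 and 11.4 CPM at P14 (17.7-fold lower, edgeR adjusted p = 0.00144) and was the 1 called member of 33 cardiac transcription factors. Its antisense gene Gata6os overlaps it over 1692 bases, and reads on these bases cannot be assigned by strand here. Sox4, a high-mobility-group factor of progenitor cells, stood at 92.1, 557 and 409 CPM and at 23.3, 35.3 and 22.8 CPM (13-fold lower, edgeR adjusted p = 0.000375). Myocd, the serum response factor partner of muscle genes, had a log2 fold change of -0.37 (SE 0.40) at 2424 to 5435 CPM at P1.

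Lrrfip1, a nucleic-acid-binding repressor, stood at 686, 2021 and 2470.1 CPM at P1 and 382, 180.0 and 416 CPM at P14 (5.29-fold lower, edgeR adjusted p = 3.86e-05). Ubp1, a grainyhead-family factor, had 0, 161 and 88.2 CPM at P1 and no read at P14 (at least 112-fold lower, edgeR adjusted p = 0.000327), so that P1 replicate 2 did not differ from the P14 libraries. Rest, the repressor of neuronal genes, stood at 21.7, 184 and 215 CPM at P1 and 0, 10.5 and 0 CPM at P14 (edgeR adjusted p = 0.00212).

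Son, a scaffold of nuclear speckles needed for splicing, stood at 256, 1797 and 1943 CPM at P1 and at 326, 51.8 and 175 CPM at P14 (7.24-fold lower, edgeR adjusted p = 0.000104). P14 replicate 1 lay above P1 replicate 2, and the call was lost with the replicate block. In the list of SR proteins and hnRNPs, which bind pre-mRNA and steer splicing, 2 of 38 were called lower (0.314% of all genes). The list median was -1.90. Srsf11 stood at 389.5, 2365 and 2521 CPM and at 850.4, 122 and 372 CPM (edgeR adjusted p = 0.00322), and Hnrnpm at 179, 299 and 622 CPM and at 134, 39 and 0 CPM (edgeR adjusted p = 0.0145). The days overlapped for Srsf11 and not for Hnrnpm, whose call was lost with the block. Further called genes with a known part in splicing were Prpf38b, Arglu1, Sf1, Srrt, Khdc4, Rbm33 and the cyclin Ccnl1, a group put together after their calls were seen. The splicing regulators that act in muscle had 0 of 17 called, among them Rbm20 (-0.15) and Rbfox1 (-0.33).

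The remaining genes of smallest p had varied roles. Ptma, the small acidic chromatin protein prothymosin alpha, stood at 16.9, 127 and 99.3 CPM at P1 and 0, 0.75 and 0 CPM at P14 (edgeR adjusted p = 3.11e-05). With 334 reads at P1 and 1 at P14 the ratio of the pooled levels was 313, with a 95% counting interval of 55.7 to 12388 (exact binomial). Pdap1, which binds platelet-derived growth factor A, stood at 190.3, 218 and 311 CPM and 3.53, 10.5 and 20.5 CPM (20.9-fold lower, edgeR adjusted p = 0.000139). Each P14 library lay below each P1 library in both genes.

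Lpcat3, which places arachidonate in membrane phospholipids, had 123, 75.4 and 120.0 CPM and 1.41, 1.5 and 0 CPM. It was 109-fold lower (edgeR adjusted p = 0.0006), a size that rests on 4 reads at P14 against 463 at P1. Ivd, an enzyme of leucine breakdown, had 0, 48.6 and 117 CPM and 0, 0 and 0.759 CPM (edgeR adjusted p = 0.000384). Spaca6, known from sperm-egg fusion, stood at 75.3, 325 and 216 CPM and 35.3, 0 and 0 CPM (17.4-fold lower, edgeR adjusted p = 0.000765). Ivd was the only one of these 3 whose days overlapped.

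The other 44 genes called lower had edgeR adjusted p-values from 0.00134 (Incenp) to 0.0499 (Casq2). Beside those described elsewhere they were Eno3 and Nagk of sugar metabolism, the acyltransferase Lclat1, the deubiquitinase Usp8 and the anaphase-promoting complex subunit Anapc5. Receptors and their kinase were Pth1r, Ednra (the endothelin receptor of muscle) and Grk3, and chromatin factors were Brd1, Smarca4 and Mphosph8. Cytoskeletal and matrix genes were Shroom3, Camsap1, Smpx, Lamb1 and the Hippo cofactor Mob1b. The rest were Naa40, Ddx27, Tcf25, Knop1, Med19, Rrp1b, Fam193a, Eif2ak4, Kin and the noncoding 2900089D17Rik. With Airn, the latter was 1 of 2 long noncoding RNAs, and 62 of the 64 genes were protein coding. Of the 65 called genes, 39 overlap a gene on the opposite strand.

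Of the 65 genes, 14 were called alike by edgeR, DESeq2 and limma-voom, among them Tnni1, Ptma, Coro6, Lpcat3, Spaca6, Grk3, Brd1, Nagk, Camsap1, Pth1r, 2900089D17Rik, Med19 and Mob1b. No read in any P14 control library was found for Tnni1, Coro6, Brd1, Nagk, Camsap1, Pth1r, 2900089D17Rik, Med19 and Mob1b. Plagl1 and Tnnt2, with reads in every P14 control library, were not among the 14. With the replicate number as a block 13 of the 65 calls were lost, at edgeR adjusted p-values of 0.054 to 0.452. These were Med19, Khdc4, Rrp1b, Arglu1, Mphosph8, Fam193a, Srrt, Kin and the Son, Peg3, Hnrnpm, Casq2 and Mapt genes. Leaving out 1 control library at a time kept 21 genes in every fit, and 34 of the 65 were called in at most 3 of the 6 such fits. Of the genes called alike by the tools, Mob1b was called in 2 of these fits, and Grk3, Pth1r, Med19 and 2900089D17Rik in 3 each.

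Several calls described in the text were lost when 1 library was left out, with the direction kept. Without P1 replicate 4 the log2 fold change of Lmo7 was -1.46 (edgeR adjusted p = 0.262), that of Hnrnpm -2.05 (0.438), that of Pdlim5 -2.73 (0.24), that of Eno3 -4.79 (0.0729) and that of Mapt 2.37 (0.452). Mapt was at 2.10 without P1 replicate 2 (edgeR adjusted p = 0.316) and at 1.51 without P14 replicate 1 (0.528). Without P14 replicate 4 the log2 fold change of Slc8a1 was -1.32 (edgeR adjusted p = 0.495), that of Casq2 -1.55 (0.632), that of Cald1 -2.17 (0.0692), that of Rest -4.73 (0.0927) and that of Lamb1 -4.92 (0.0781). Airn, Peg3, Slc8a1, Srsf11, Pdlim5, Mtss1 and Mob1b were each not called in 4 of the 6 fits, with edgeR adjusted p-values of 0.0716 to 0.16 for Airn and 0.0939 to 0.164 for Peg3.

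**Figure D3:**
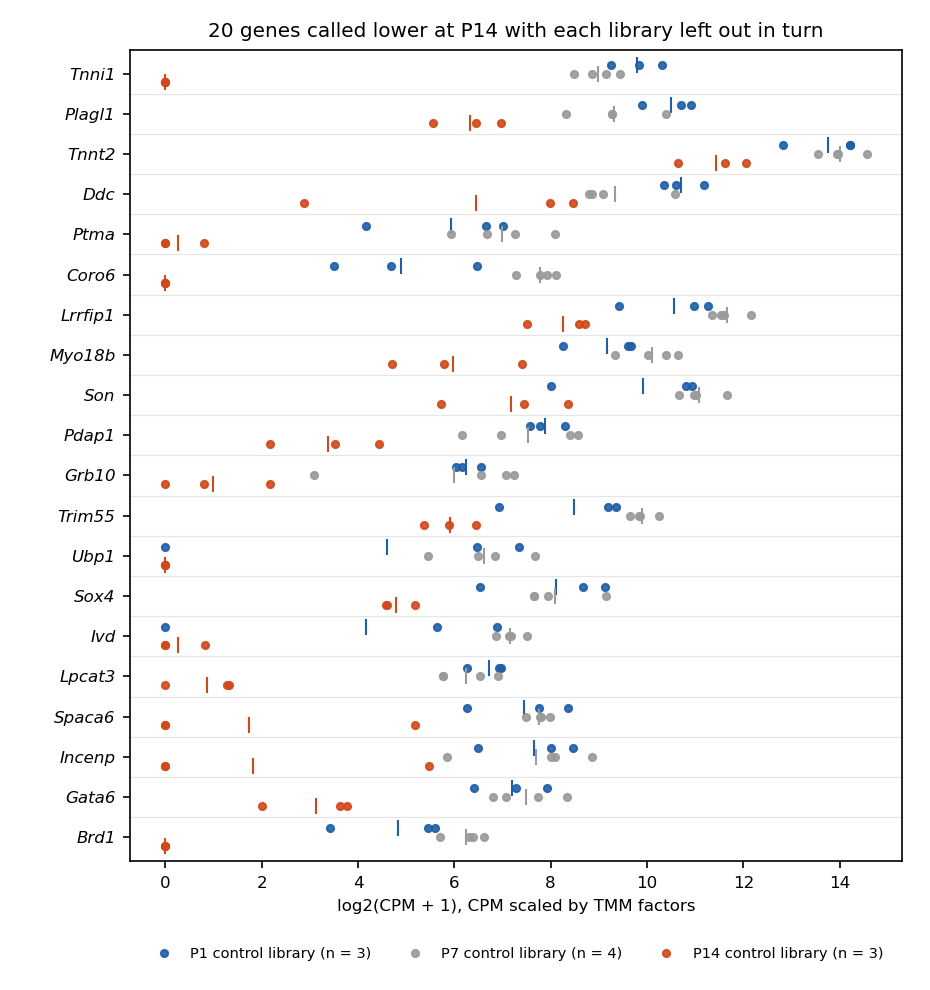
Level in each control library, as log2(CPM + 1) on the horizontal axis, of 20 of the 21 genes called lower in each of the 6 fits that leave out 1 control library, at P1 (blue, n = 3), P7 (grey, n = 4) and P14 (red, n = 3), with ticks at the means. In most genes the P7 points lie near or above those of P1 and the P14 points lie lowest.

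At P7, the day between, the control mean was above the P1 mean in 49 of the 64 genes, between P1 and P14 in 15 and below P14 in 0. It was above the P1 mean in 55.0% of all genes tested. The 4 P7 control libraries stood apart from both other days, with summed CM markers of 61642 to 90145 CPM, 36.7 to 54.7% of reads assigned to no gene and 14416 to 17614 genes detected, and the part of this in the P7 levels was not tested. Myo18b stood at 1155 ± 411 CPM and Trim55 at 966 ± 180.1 CPM at P7, above their P1 levels. Tnni1, Plagl1 and Ddc were among the 15 in between. These P7 values are given as levels only, since P1 and P14 values chose the genes, and no difference from P7 was tested here.

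Mapt was the 1 gene called higher at P14. It encodes tau, a microtubule-binding protein best known from neurons and also made by CMs. It stood at 1.2, 90.9 and 27 CPM at P1 and at 489, 83.3 and 143 CPM at P14 (6.01-fold higher, log2 fold change 2.59, SE 0.68, edgeR adjusted p = 0.0496). P14 replicate 2 lay below P1 replicate 3, so the days overlapped, and the call was lost with the replicate block. Summed Schwann and neuronal markers were 63.5 to 251 CPM at P1 and 86.3 to 256 CPM at P14. At P7 Mapt already stood at 418 ± 64.2 CPM. Of the other microtubule and nuclear envelope organizers 0 of 34 were called, and Map4, the main microtubule-binding protein of muscle, had a log2 fold change of 0.03 (SE 0.49).

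The 8 genes with the smallest p above 0 that were not called had adjusted p-values of 0.0565 and above. Naalad2, a membrane peptidase, stood at 0, 9.86 and 0 CPM at P1 and 254, 75 and 181 CPM at P14 (edgeR adjusted p = 0.0565). Limch1, an activator of non-muscle myosin, stood at 253, 258 and 149 CPM and at 1059.6, 603 and 736 CPM (edgeR adjusted p = 0.0866). Pde4d, a phosphodiesterase that ends cyclic AMP signals near the ryanodine receptor, stood at 1583, 2815 and 2028 CPM and at 4806, 5853 and 4873 CPM (log2 fold change 1.27, SE 0.37, edgeR adjusted p = 0.116). In each of the 3 every P14 library lay above every P1 library, as in 1.52% of all genes. In Casp2-depleted nuclei their log2 fold changes were -0.81 for Naalad2, 1.41 for Limch1 and 0.78 for Pde4d, without a call.

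Sbk1, a kinase with an SH3-binding domain, stood at 208, 459 and 341 CPM at P1 and 1360.0, 699 and 1176 CPM at P14 (edgeR adjusted p = 0.147), again with no overlap. Vcpip1, a deubiquitinase, had an adjusted p of 0.104 with edgeR, and Trim7 and the unnamed Gm43366 one of 0.162. Osbp, a sterol-binding protein, had reads in 1 of the 3 P14 libraries only (edgeR adjusted p = 0.0585). In Casp2-depleted nuclei the log2 fold change was -0.27 for Vcpip1, 1.04 for Sbk1, 0.86 for Trim7, 1.36 for Gm43366 and 1.08 for Osbp, without a call.

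In the list of sarcoplasmic reticulum calcium handling 2 of 23 were called, both lower (0.314% of all genes). Slc8a1, the sodium-calcium exchanger that extrudes calcium, stood at 1539, 5008 and 3779 CPM at P1 and 1939.7, 821 and 821 CPM at P14 (2.88-fold lower, edgeR adjusted p = 0.0158), with overlap of P1 replicate 2 and P14 replicate 1. Casq2, the calcium store protein of the reticulum, stood at 139.7, 446 and 324 CPM and at 113, 93.8 and 5.31 CPM (4.29-fold lower, edgeR adjusted p = 0.0499), a call that the block removed. The list median of -0.18 lay above that of all genes.

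Ryr2, the calcium release channel, stood at 6313, 13291 and 10943 CPM at P1 and 12146, 3298 and 5424 CPM at P14, with no call. Of 41 voltage-gated and potassium channel genes 0 were called, and Cacna1c, the L-type calcium channel, was at 4665, 10578 and 8269 CPM and at 4802, 4016 and 3148 CPM (log2 fold change -0.97, SE 0.33, edgeR adjusted p = 0.283). Intercalated disc junction genes had 0 of 23 called and dystrophin complex genes 0 of 16, where 0.319% of all genes tested were called.

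Cell cycle lists gave 1 call, where 0.319% of all genes tested were called. Incenp, a subunit of the chromosomal passenger complex that guides cytokinesis, stood at 88.5, 352 and 255 CPM at P1 and at 0, 43.5 and 0 CPM at P14 (16-fold lower, edgeR adjusted p = 0.00134), and was 1 of 43 mitosis and cytokinesis genes. In DNA replication 0 of 39 and in G1 and cell cycle exit 0 of 34 were called. No read at P14 was found for 14 of the 34 G1 genes and 9 of the 39 replication genes, where 25.7% of all genes tested had none. Rfc1, a clamp loader, stood at 68, 179 and 336 CPM at P1 and 17, 21.8 and 81.2 CPM at P14 without a call (edgeR adjusted p = 0.159). PIDDosome and p53 pathway genes had 0 of 14 called. Cradd, the adaptor RAIDD that bridges PIDD1 and caspase-2, stood at 10.8, 94.4 and 161 CPM at P1 and 89.1, 70.5 and 0 CPM at P14.

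Metabolic lists gave 1 call as well, where 0.319% of all genes tested were called. Eno3, the muscle enolase of glycolysis, was called as 1 of 35 glucose genes. It stood at 23.5, 78.2 and 159 CPM at P1 and 0, 0 and 5.31 CPM at P14. It was 49-fold lower (edgeR adjusted p = 0.00302), a size that rests on 7 reads at P14, all in replicate 4. Of nuclear-encoded oxidative phosphorylation genes 0 of 77 were called, with a median of -0.74, and 25 of the 77 had no read at P14 (25.7% of all genes). Fatty acid uptake and oxidation had 0 of 38 called with a median of -0.53. Ppara, the fatty acid receptor that drives oxidation genes, stood at 464, 927 and 470.3 CPM at P1 and 1348, 1060.0 and 1016 CPM at P14. Each P14 library lay above each P1 library, as in 1.52% of all genes, and it was not called (edgeR adjusted p = 0.431). Ppara belongs to the nuclear receptor list, with 0 of 29 called and a median of 0.13, one of 4 lists with a median above 0. The others were the macrophage (0.33), endothelial (0.16) and Schwann and neuronal (0.04) marker lists. The part of cell content in these medians was not tested.

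Over the 40 lists 20 members were called, and of all genes tested 0.319% were. At that share most lists of these sizes would hold no call, so a count of 0 is no trait of a list. The medians were below 0 in 34 lists, at 0 in 2 and above 0 in 4. Relative to the median of all genes, 31 lists lay lower, and 18 did so in each of 7 settings of scaling and sample choice, the imprinted growth, SR protein, fetal and adult isoform, and ubiquitin ligase lists among them. So did the CM markers (median -1.04, with 10 of 10 members below 0) and the mitochondrially encoded genes (median -1.55), and the part of CM content or RNA quality in the other lists was not tested. The order of the list medians depended on the scaling: with limma-voom the fetal isoform list was lowest (-2.17 with TMM, -1.45 with quantile normalization, where the ubiquitin ligase list was at -0.53). The Hippo list had 1 of 21 called (Mob1b) and the matrix list 1 of 33, Lamb1 (laminin beta 1), at 58.4, 113 and 63.6 CPM at P1 and 4.24, 0.75 and 0 CPM at P14. Fibroblast, endothelial, mural, macrophage, erythroid and Schwann cell markers had 0 called.

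Casp2-depleted nuclei gave a second set of libraries in which the genes called in control could be looked up, 4 at P1 and 3 at P14. There 396 genes were called between the same days (1.94%), 392 of them lower (1.92%) and 4 higher (0.0196%). Of the 64 genes called lower in control, 64 had a log2 fold change below 0 (57.3% of all genes), 46 were called lower and in 44 each P14 library lay below each P1 library (4.78% of all genes). Both contrasts came from 1 fit with 1 estimate of the spread per gene, so the calls in both genotypes are not independent. The genes called lower in control were also more abundant at P1 (median 171 against 13.4 CPM over all genes tested). The shares over all genes are thus no matched background. The 46 shared genes were 71.9% of the control calls and 11.6% of the depleted ones. Mapt was at 1.40 there and was not called (edgeR adjusted p = 0.233).

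Plagl1 and Tnnt2 changed by about the same amount in both genotypes, with log2 fold changes of -4.14 and -2.51 in depleted nuclei beside -4.15 and -2.33 in control. The fall of Tnni1 was -5.87 there, with 62, 5 and 1 reads in the 3 P14 depleted libraries against 0 in control. Slc8a1 stood at -3.34 in depleted and -1.53 in control nuclei, and Incenp at -0.28 and -3.99. The difference between genotypes was itself called for 13 genes (0.0638%), of which only Tnni1 and Spaca6 are among the 65, so no difference is claimed for the others. Among the 65, 20 had an unadjusted p below 0.05 for it, where 11.7% of all genes did. The control change that chose the 65 is itself a part of this difference, so the share describes them and is no further evidence.

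**Figure D4:**
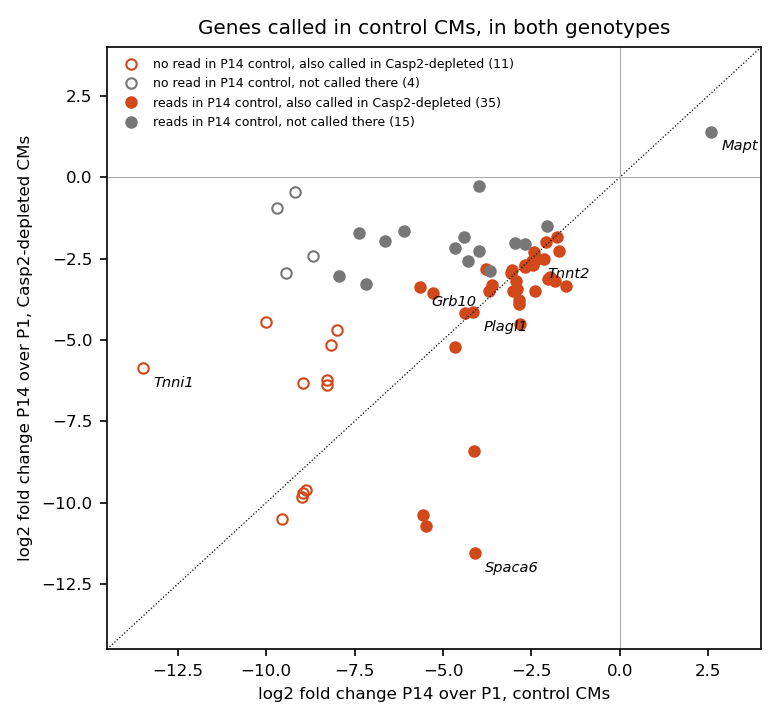
Log2 fold change at P14 over P1 in Casp2-depleted nuclei (vertical axis) against control nuclei (horizontal axis) for the 65 genes called in control; open symbols had no read in the control P14 libraries, and colour shows a call in depleted nuclei. All 64 genes lower in control lie below 0 in depleted nuclei, and 46 of them were called there.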

How the data were processed

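Nuclear RNA of PCM1-sorted cardiomyocytes was measured by 3′ end sequencing. The authors trimmed the reads with cutadapt (4.0), checked them with FastQC (0.11.8), aligned them to GRCm39 with STAR (2.6.1e) and used HTSeq (2.0.3) to count exonic and intronic reads of each gene, versions per the submitters' processing notes. The deposited values are raw counts for 56923 identifiers, without normalization. Molecular identifiers and the strand setting are not given in the sources used here.

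Groups and replicate numbers came from the sample labels. GENCODE vM39 names 56210 of the identifiers, which hold 99.5% of the reads. Reads on no gene (34.3 to 76.1% of reads in the 21 libraries kept) stayed out of library sizes, which were 891817 to 2924097 reads. Genes with at least 10 reads in all and a read in at least 3 libraries were tested with edgeR (4.0.16; R 4.3.3), with TMM factors, 6 group means over 21 libraries (15 residual degrees of freedom) and a quasi-likelihood F-test. Its robust option was set to follow an earlier analysis of these data, and without it 74 genes were called in place of 65. Calls needed a p below 0.05 after Benjamini-Hochberg adjustment together with a log2 fold change over 1 in size. The SE is the log2 fold change over the root of F. CPM of single genes in the libraries kept were computed from the counts with TMM-scaled library sizes. Marker sums and the limit of 3 reads per library used library sizes without TMM factors. A fold against a group at 0 uses 3 reads over the group. No library pair agreed within sampling noise. P-values measure the spread between pools. Single values per library were compared by exact permutation tests (Python 3.11.15, scipy 1.17.1). The fit was tested on simulated data.

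Named were each gene called higher, the 20 genes called lower of smallest p, the 8 of smallest p above 0 that were not called, all called members and the 3 most abundant members of 40 gene lists (971 of 1052 symbols tested), 16 isoform genes, Casp2 and Pcm1, and genes called by edgeR, DESeq2 (1.42.0) and limma-voom (limma 3.58.1) alike. Genes selected by this rule that are not named are not reported here. The members and lists were chosen with earlier results of these data known. Alternatives were other filters, scalings, tools, samples and terms, and leaving out each library.

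The deposited files' names mark the replicate number as a batch, and P1 and P14 control share numbers 2 and 4. Deviations of same-numbered libraries from their group means correlated at 0.105 and -0.00772.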

Additional observations from a re-analysis of the deposited data

Results flagged for a closer look

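The change from P1 to P14 differed between control and Casp2-depleted nuclei for 2 of the called genes by a test of the difference itself. For Tnni1 the difference of the log2 fold changes, control minus depleted, was -7.61 (edgeR adjusted p = 9.8e-08). The gene had no read in the 3 P14 control libraries and 62, 5 and 1 reads in the 3 P14 depleted ones, so the difference rests on counts near 0, and it was the 1 call of this kind left with the replicate block. For Spaca6 the difference was 7.44 (edgeR adjusted p = 0.00283): reads were found in 1 of 3 P14 control libraries and in 0 of 3 depleted ones.

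Among the P7 control libraries, 1 of 4 stood apart from the other three for 4 of 65 genes tested, where chance gives about 1 in 20. Ddc stood at 1522 CPM in P7 replicate 2, against 443 to 543 in the others. Lmo7 stood at 6531 CPM in the same library, against 4033 to 4216. Sox4 stood at 568 CPM in P7 replicate 1, against 199 to 245, and Naa40 at 207 CPM there, against 69.0 to 81.8.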

How the results depend on the processing

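The count of calls depended on the tool and the samples, and so did the calls of several genes with the smallest p. Tnni1 was called in all 20 other settings, Ptma and Coro6 in 19 each, Plagl1 in 17, Tnnt2 in 16 and Ddc in 13. In place of 65 calls between P1 and P14 in control nuclei, edgeR's filterByExpr gave 31, DESeq2 520, limma-voom 205 with TMM and 126 with quantile normalization, all 24 libraries 14 and a fit of the 2 groups alone 28. Of the 65 genes, 54 were among the 520 of DESeq2 and 15 among the 205 of limma-voom. Leaving out 1 control library gave 29 to 143 calls: 81, 36 and 29 without P1 replicates 2, 3 and 4, and 143, 142 and 43 without P14 replicates 1, 2 and 4. Calls of list members, 20 in all, came to 11 with filterByExpr, 53 with DESeq2, 11 with limma-voom after quantile normalization, 13 with upper quartile factors, 7 with all 24 libraries, 12 with the 2 groups alone, and 9 to 38 when 1 library was left out. The cause was not tested.

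In Casp2-depleted nuclei, in place of 396 calls, filterByExpr gave 244, DESeq2 1185, limma-voom with quantile normalization 610, all 24 libraries 61 and the percentage of reads assigned to no gene as a term 95. The 46 control calls shared with them became 20 with filterByExpr, 131 with DESeq2, 25 and 18 with limma-voom (TMM and quantile), 28 with upper quartile factors, 4 with all 24 libraries, and 20 to 100 when 1 library was left out. The 13 calls of the difference between genotypes became 3 with filterByExpr, 6 with no filter, 401 with DESeq2, 24 and 31 with limma-voom (TMM and quantile), 6 with RLE factors, 6 when all 24 libraries entered, 8 after thinning to equal depth, 3 with the percentage of reads assigned to no gene as a term, 25 without robust estimation, and 4 to 113 when 1 library was left out.

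With the replicate number as a block, control calls stayed at 65, of which 52 were among the 65 without it, and the calls of the difference between genotypes went to 1. The pairing rests on the batch number alone, since only replicates 2 and 4 are shared. No other count moved by over 1.5 times under the block.

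Direction turned for 6 named genes, 1 of them called. With all 24 libraries the log2 fold change was 0.0928 for the called gene Srrt (-2.15 in the reported fit), 0.24 for Myh6 and 0.0795 for Myl2. When 1 control library was left out, Acta2 ran from -8.00 (without P14 replicate 1) to 0.21 (without P1 replicate 2). Tnnt1 ran from -4.84 (without P14 replicate 1) to 0.23 (without P14 replicate 4), and was 0.19 without P14 replicate 2. Myom2 ran from -1.03 (without P14 replicate 4) to 0.26 (without P14 replicate 1), and was 0.17 without P1 replicate 2. It was 0.35 with upper quartile factors, 0.0843 with the percentage of reads assigned to no gene as a term, and 0.0386 without P14 replicate 2. The median of all genes, -0.28, lay between -0.76 and 0 under the other settings.

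Depth limits the lower end of the measurements: 25.7% of the genes tested had no read at P14 and 14.9% none at P1. A count of 0 allows up to 3.36 CPM in the shallowest library, in CPM without TMM factors.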

Other observations

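The pair of control libraries left out of the comparison, P1 replicate 1 and P14 replicate 3, gives values for the same genes that entered no test. P1 replicate 1 held 3310579 reads on genes with 9.21% on no gene, and P14 replicate 3 held 1063147 reads on only 2049 genes with 16.1% on no gene, so the 2 stand apart from the libraries kept. Between them 56 of the 64 genes called lower were lower at P14 (87.5%), a share near that of all genes whose values differed in this pair (89.5% of 11423). No read in P14 replicate 3 was found for 39 of the 64 (60.9%) and for 90.1% of all genes tested. The pair therefore gives no separate support to the calls. In CPM of reads on genes, Tnni1 stood at 1185 and 0, Plagl1 at 1346 and 205, Ddc at 869 and 196, Grb10 at 958 and 0, and Gata6 at 389 and 0. Tnnt2 stood at 10745 at P1 and 19170 at P14, opposite to the libraries kept. Mapt stood at 23.9 and 989.5.

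Within the libraries kept, the pair of replicate 4 had 64 of the 64 genes lower at P14 (66.7% of all genes whose values differed) and the pair of replicate 2 had 56 of the 60 that differed (43.1%). These pairs entered the test that chose the genes and are given as a description.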
